A study of Homo sapiens with 24 samples.

Results

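The nuclear genes of oxidative phosphorylation were followed through 24 RNA-seq libraries of 2 clear cell renal cell carcinoma (ccRCC) lines. Members were taken by name: every gene row beginning with NDUFA, NDUFB, NDUFC, NDUFS or NDUFV and a number, with UQCR, with COX and a number from 4 to 8, or with ATP5, and the rows SDHA, SDHB, SDHC and SDHD, without NDUFA4L2. This rule took 92 of the 26475 rows. Of these, 83 were structural subunits and their isoforms, 36 of complex I, 4 of complex II, 9 of complex III, 18 of complex IV and 16 of complex V. The other 9 rows were 2 pseudogenes, 2 readthrough transcripts, 3 antisense transcripts and 2 genes of other proteins (ATP5S and ATP5SL), and they were left out of the counts. Genes encoded on the mitochondrial genome were not analysed here.

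786-M1A and OS-LM1 are metastatic derivatives of the VHL-mutant lines 786-O and OS-RC2, and both carry a luciferase reporter. Each line gave 4 libraries with shPAX8-1, 4 with shPAX8-2 and 4 with sgNTC18. shPAX8-1 and shPAX8-2 are hairpins against PAX8, the lineage transcription factor of renal epithelium, and the study's methods describe shRNA plasmids induced by doxycycline, without stating the induction for these libraries. sgNTC18 is a guide RNA with no target. Comparisons of shPAX8 with sgNTC18 therefore set hairpins against a guide RNA, so that depletion of PAX8, kind of construct and experiment cannot be told apart in them. All cells grew in RPMI with 10% fetal bovine serum, and RNA was taken at 80% confluence. The labels do not say that replicates came from separate cultures, so p-values measure only the spread between these libraries.

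Oxidative phosphorylation couples the oxidation of NADH and succinate to the synthesis of ATP in the inner mitochondrial membrane. Complex I (NADH dehydrogenase) and complex II (succinate dehydrogenase, which is also an enzyme of the tricarboxylic acid cycle) pass electrons to ubiquinone, complex III passes them on to cytochrome c and complex IV to oxygen, and complex V, the ATP synthase, uses the proton gradient. Most subunits are encoded in the nucleus, and complex II wholly so. In ccRCC, loss of VHL stabilises hypoxia-inducible factors, and inherited loss of succinate dehydrogenase genes is itself a cause of renal tumours.

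PAX8 was lower with both hairpins than with sgNTC18 in each line, and the hairpins differed from each other in 786-M1A. There the normalised read counts (CPM, the count of a gene scaled to the TMM-normalised size of its library) of PAX8 were 292, 393, 360 and 319 with sgNTC18, 22.9, 21.9, 15.2 and 14.8 with shPAX8-1, and 41.4, 45.5, 42.6 and 40 with shPAX8-2. In OS-LM1 they were 262, 279, 245 and 254 with sgNTC18, 85.6, 78.4, 59.8 and 89.2 with shPAX8-1, and 76.2, 63.8, 97 and 79.9 with shPAX8-2. The constructs did not overlap in 786-M1A (log2 fold change -1.18, SE 0.15, adjusted p = 4e-05, edgeR's quasi-likelihood test) and overlapped in OS-LM1 (log2 fold change -0.05, SE 0.12, adjusted p = 0.8), and the lines differed by 1.16 (SE 0.20, adjusted p = 0.00015).

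The libraries held between 11634419 and 52059375 expected counts, with a median of 32029482.5 over the sgNTC18 libraries and 18200166 over the shPAX8 libraries. Summed CPM over a list of 8 renal markers lay between 4820 and 12800, most of it VIM (3670 to 11400), which mesenchymal cells also express. The renal transcription factor PAX2 (6.02 to 53.8 CPM) was present in all libraries, and CA9 was at 0 in 9. The sums were 0.246 to 3.97 for leukocyte and 0.0552 to 0.923 for endothelial markers. The sum over the stromal markers PDGFRB, DCN and LUM was 0.62 to 4.57 in OS-LM1, whereas in 786-M1A it was 533 to 722 with sgNTC18, 198 to 417 with shPAX8-1 and 662 to 882 with shPAX8-2, nearly all of it PDGFRB, with DCN at 1.17 CPM or less and LUM at 8.56 or less in all 24 libraries. Its part in the differences below was not tested. In 786-M1A the shPAX8-1 libraries formed subgroups: the chi-square per gene of their counts was 15.9 between replicates 1 and 2, 3.87 between replicates 3 and 4, and 50.5 to 87.7 across. The difference between the constructs in 786-M1A is therefore also given with either pair alone. The shPAX8-2 libraries of OS-LM1 were also uneven, with 17.1 between replicates 1 and 2, 70.1 between 2 and 3 and 108 between 3 and 4. No fit with a pair of replicates alone was run for OS-LM1. In bulk RNA, fewer cells that express a gene and less of its RNA per cell cannot be told apart.

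The subunit genes took between 1.37% and 2.61% of the summed TPM (a level per transcript length) in the 24 libraries. Their share was highest with shPAX8-1 in OS-LM1 (2.44% ± 0.14, SD, n = 4) and lowest with shPAX8-2 in 786-M1A (1.52% ± 0.173). Per length, the highest mean levels over the 24 libraries were those of ATP5E (1180 TPM), the epsilon subunit of the ATP synthase, UQCRH (1130 TPM), the hinge protein of complex III, and COX7C (1080 TPM), a small subunit of complex IV. Within complex II, SDHB averaged 163 TPM, SDHC 106, SDHA 93.0 and SDHD 75.5. In complex I, the means ran from 615 TPM for NDUFB4 down to 5.22 TPM for NDUFA5, both accessory subunits.

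Tissue-restricted isoforms of complex IV were at or near 0. COX4I2, an isoform of lung that hypoxia induces in some cells, had 0 counts in all 24 libraries, and its partner gene COX4I1 averaged 441 TPM. COX6A2 and COX7A1, the isoforms of heart and skeletal muscle, had at most 1 and 2 counts in a library. COX7B2 reached 6 counts and COX8C 8, both isoforms best known from testis. With ATP5L2 in 786-M1A, or COX6B2 in OS-LM1, these 5 genes fell under the filter on low counts, which left 77 of 83 subunits tested in each line.

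Members differed from most genes in their transcripts. Over the 77 tested subunits the median transcript length was 814 bases and the median log2 CPM 6.36, against 2806 bases and 3.89 over all genes tested in both lines. Their GC content had a median of 46.9% and ranged from 34.1% to 64.9%, around the 47.8% of all genes.

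The constructs were compared first, since their libraries carry the same kind of construct. With shPAX8-1 the subunits were on balance higher than with shPAX8-2 in both lines. In 786-M1A, 31 of 77 subunits were higher and 4 lower at an adjusted p under 0.05, where 24.2% of all genes tested were higher and 22.9% lower (47.1% in all). In OS-LM1, 20 of 77 were higher and 1 lower, where 12.4% of all genes were higher and 16.7% lower (29.1% in all). The median log2 fold change was 0.24 over the subunits and -0.02 over all genes in 786-M1A, and 0.17 and -0.03 in OS-LM1. The CPM of the constructs did not overlap for 12 subunits in 786-M1A and 11 in OS-LM1, where they did not for 36.3% and 24.9% of all genes. The libraries of the lines are separate, and 18 of the 76 subunits tested in both were higher in both, as were 5.15% of all genes. SDHD was the 1 subunit lower in both (7.69% of all genes were), and none went in opposite directions (3.45%).

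**Figure D1:**
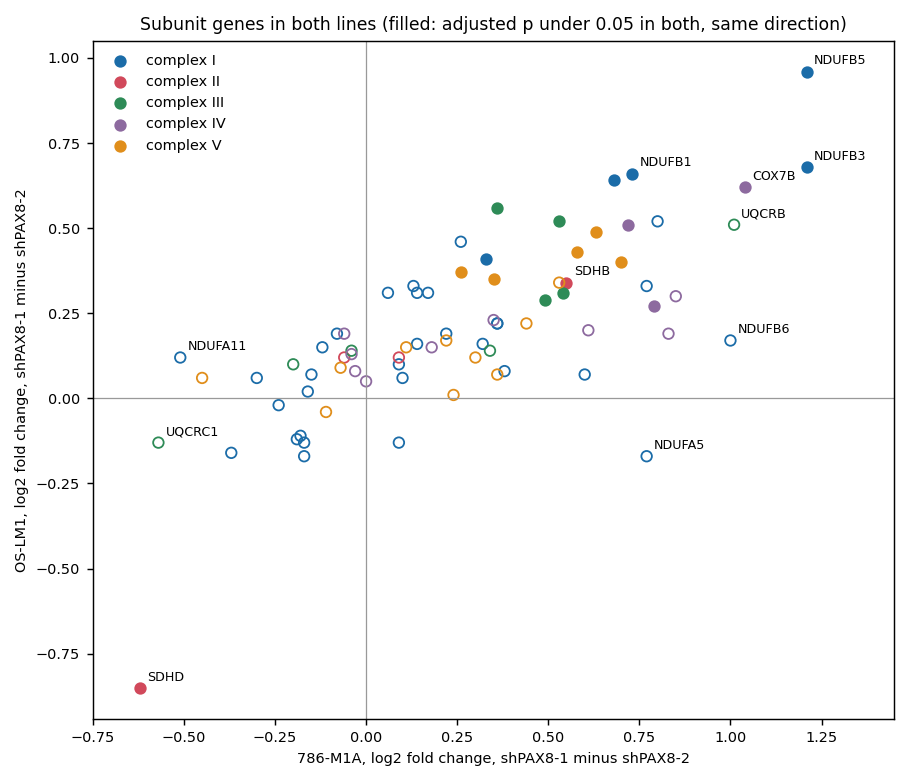
Log2 fold change of each subunit gene between shPAX8-1 and shPAX8-2 in 786-M1A (x axis) and OS-LM1 (y axis), coloured by complex, with filled points for genes at an adjusted p under 0.05 in both lines and the same direction. NDUFB5 lies farthest to the upper right (1.21 and 0.96), and SDHD stands alone at the lower left (-0.62 and -0.85).

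Complex II held subunits called in opposite directions. Its 4 subunits are SDHA, the flavoprotein that oxidises succinate, SDHB, which carries the iron-sulphur clusters, and SDHC and SDHD, which anchor the enzyme in the membrane and bind ubiquinone. SDHD (GRCh38.p14, chr11:112086873-112095794) had 28.4, 28.3, 43.2 and 48.5 CPM with shPAX8-1 and 52.0, 48.8, 61.7 and 66.2 CPM with shPAX8-2 in 786-M1A. Its values in OS-LM1 were 54.3, 44, 51.4 and 47.7 CPM with shPAX8-1 and 87.3, 108, 69.4 and 84.6 CPM with shPAX8-2. The constructs did not overlap in either line, and every shPAX8-1 library was the lower. The log2 fold changes were -0.62 (SE 0.17, adjusted p = 0.009) and -0.85 (SE 0.12, adjusted p = 3.5e-05), and their difference between the lines did not pass the test (-0.20, SE 0.22, adjusted p = 0.54). In 786-M1A the value was -1.01 (adjusted p = 0.0001) with replicates 1 and 2 of shPAX8-1 alone and -0.32 (adjusted p = 0.053) with replicates 3 and 4 alone. The sgNTC18 libraries held 46.5, 37.1, 41.6 and 46.7 CPM of SDHD in 786-M1A and 71.1, 78.5, 85.9 and 92.0 CPM in OS-LM1. In 786-M1A these overlapped the shPAX8-1 libraries and lay below all shPAX8-2 libraries (0.43, SE 0.17, adjusted p = 0.04, for shPAX8-2 against sgNTC18). In OS-LM1 they overlapped the shPAX8-2 libraries and lay above all shPAX8-1 libraries (-0.76, SE 0.12, adjusted p = 1.6e-05, for shPAX8-1).

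SDHB (chr1:17018722-17054032) moved the other way. In 786-M1A it had 95.8, 106, 140 and 156 CPM with shPAX8-1 and 75.6, 70.6, 88.8 and 104 CPM with shPAX8-2. Its OS-LM1 values were 147, 111, 131 and 148 CPM with shPAX8-1 and 88.3, 119, 88.8 and 120 CPM with shPAX8-2. The groups overlapped in both lines. The log2 fold changes were 0.55 (SE 0.16, adjusted p = 0.0096) in 786-M1A and 0.34 (SE 0.12, adjusted p = 0.035) in OS-LM1. The call in 786-M1A was lost with replicates 1 and 2 of shPAX8-1 alone (0.25, adjusted p = 0.19). That in OS-LM1 was lost without shPAX8-1 replicate 1 (0.29, adjusted p = 0.11), shPAX8-1 replicate 4 (0.29, adjusted p = 0.11), shPAX8-2 replicate 1 (0.27, adjusted p = 0.13) or shPAX8-2 replicate 3 (0.29, adjusted p = 0.069). SDHA and SDHC did not pass the test in either line, with log2 fold changes of -0.06 (SE 0.08) and 0.09 (SE 0.14) in 786-M1A and 0.12 (SE 0.09) for each in OS-LM1.

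The bases just before the start of SDHD, SDHB and NDUFB3 are shown because these genes carry the difference between the constructs in opposite directions, and because promoters of respiratory chain genes are known for sites of the factors NRF1, GABPA (an ETS factor) and SP1. Capitals mark the words GCGCA, any base, GCGC (NRF1), CCGGAAG (ETS/GABPA) and GGGCGG (SP1) on either strand. The reference sequence and gene starts are those of RefSeq for GRCh38.p14, and each run is written 5′ to 3′ on the strand of the gene and ends at the base before its start. The run of SDHD is short because the gene TIMM8B begins upstream of it on the other strand.
SDHD, chr11:112086757-112086872, plus strand: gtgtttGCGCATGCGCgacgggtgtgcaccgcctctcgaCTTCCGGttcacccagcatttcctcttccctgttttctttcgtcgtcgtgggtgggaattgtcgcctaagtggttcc
SDHB, chr1:17054033-17054282, minus strand: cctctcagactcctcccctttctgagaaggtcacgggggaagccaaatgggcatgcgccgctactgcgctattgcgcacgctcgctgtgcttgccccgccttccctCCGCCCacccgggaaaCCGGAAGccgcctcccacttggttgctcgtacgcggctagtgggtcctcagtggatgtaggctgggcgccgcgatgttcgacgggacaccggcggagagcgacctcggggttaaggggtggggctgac
NDUFB3, chr2:201071751-201072000, plus strand: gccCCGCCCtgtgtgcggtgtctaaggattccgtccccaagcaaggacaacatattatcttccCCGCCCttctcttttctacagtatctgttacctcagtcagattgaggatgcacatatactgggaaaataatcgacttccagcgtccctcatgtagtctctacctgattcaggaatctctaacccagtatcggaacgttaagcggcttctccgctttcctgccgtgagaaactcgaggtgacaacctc

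The run of SDHD held an NRF1 word starting 110 bases and an ETS word starting 77 bases before the gene. That of SDHB held an ETS word 128 bases and an SP1 word 144 bases before the gene, and that of NDUFB3 held SP1 words 247 and 187 bases before it. GC content was 57.8%, 66.4% and 50%. Promoter windows of 300 bases, 250 before and 50 after the start, matched 67 of the 83 subunits by symbol. NRF1 words were in 16 of them (23.9%) and in 6.28% of all 27305 windows, ETS words in 19 (28.4%, against 10.7%), words of YY1, AAGATGGC, in 11 (16.4%, against 3.03%), and SP1 words in 39 (58.2%, against 44.6%). Of the 18 subunits higher with shPAX8-1 in both lines, 15 had a window, and 3, 6, 1 and 7 of these held the words in that order. These counts describe letters in a window and no binding was measured.

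In complex I, 10 of 36 subunits were higher and 1 lower in 786-M1A, where 24.2% and 22.9% of all genes were. The count of higher ones was thus near the background share there. In OS-LM1, 7 were higher and 0 lower, where 12.4% and 16.7% of all genes were. The medians over its 36 subunits were 0.14 and 0.16. The same shares of all genes hold for the counts of complexes III, IV and V below. NDUFB5 (chr3:179604794-179627647), an accessory subunit of the membrane arm, had 29.0, 34.6, 52.1 and 53.0 CPM with shPAX8-1 and 17.4, 16.2, 20.1 and 19.3 CPM with shPAX8-2 in 786-M1A. OS-LM1 held 74.5, 62.3, 75.8 and 66.4 CPM with shPAX8-1 and 34.4, 43.3, 30.2 and 33.2 CPM with shPAX8-2. The groups did not overlap in either line, and the log2 fold changes, 1.21 (SE 0.19, adjusted p = 0.00021) and 0.96 (SE 0.11, adjusted p = 4.1e-06), were among the largest of all subunits. With replicates 1 and 2 of shPAX8-1 alone the value in 786-M1A was 0.81 (adjusted p = 0.00096). The sgNTC18 libraries had 39.0, 26.0, 32.1 and 34.5 CPM in 786-M1A, above all shPAX8-2 libraries, and 37.2, 43.5, 42.2 and 43.6 CPM in OS-LM1, below all shPAX8-1 libraries.

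NDUFB3 (chr2:201072001-201085750), also of the membrane arm, had 26.7, 38.2, 59.1 and 65.4 CPM with shPAX8-1 and 17.0, 15.3, 22.8 and 27.0 CPM with shPAX8-2 in 786-M1A, which overlapped by 1 library. The OS-LM1 libraries held 44.7, 44.9, 68.2 and 44.2 CPM against 28.8, 35.6, 23.8 and 35.4 CPM, with no overlap. The log2 fold changes were 1.21 (SE 0.26, adjusted p = 0.0019) and 0.68 (SE 0.16, adjusted p = 0.0041). NDUFB1 and NDUFA8, further accessory subunits, were higher by 0.73 and 0.68 in 786-M1A and by 0.66 and 0.64 in OS-LM1. Of the core subunits that hold redox centres, NDUFS1, which carries iron-sulphur clusters, gave -0.18 (SE 0.11) and -0.11 (SE 0.09), and NDUFV1, which binds NADH, -0.37 (SE 0.15, adjusted p = 0.06) and -0.16 (SE 0.10), none past the threshold. NDUFV1 was lower in 786-M1A in the fit with replicate numbers as a block given below (-0.39, adjusted p = 0.015).

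NDUFA11 and NDUFA5 were the 2 subunits whose difference between the constructs itself differed between the lines, where 12.7% of all genes differed upward and 14.5% downward. NDUFA11, an accessory subunit of the membrane arm with a GC-rich transcript (62.7%), had 66.0, 71.9, 47.0 and 46.5 CPM with shPAX8-1 and 72.4, 85.4, 71.9 and 101 CPM with shPAX8-2 in 786-M1A. OS-LM1 held 102, 75.8, 75.7 and 111 CPM with shPAX8-1 and 73.5, 75.4, 89.4 and 89.3 CPM with shPAX8-2. It was lower in 786-M1A (-0.51, SE 0.16, adjusted p = 0.016), did not pass in OS-LM1 (0.12, adjusted p = 0.45), and the lines differed by 0.67 (SE 0.21, adjusted p = 0.017). The difference between the lines missed the threshold without 786-M1A shPAX8-2 replicate 4 (0.56, adjusted p = 0.051) or OS-LM1 shPAX8-1 replicate 4 (0.56, adjusted p = 0.052). NDUFA5, of the peripheral arm and AT-rich (34.1% GC), had 8.63, 10.3, 20.9 and 21.4 CPM against 8.82, 7.34, 10.4 and 9.20 CPM in 786-M1A. The OS-LM1 libraries held 27.5, 20.6, 31.1 and 23.4 CPM against 31.8, 39.3, 18.6 and 24.5 CPM. Both pairs of groups overlapped. Its log2 fold changes were 0.77 (SE 0.26, adjusted p = 0.025) and -0.17 (SE 0.19, adjusted p = 0.53), and the lines differed by -0.92 (SE 0.34, adjusted p = 0.044). That call was lost without 786-M1A shPAX8-1 replicate 3 (-0.73, adjusted p = 0.12) or replicate 4 (-0.71, adjusted p = 0.13), in 14 of the 24 fits without 1 library, and with replicates 1 and 2 of shPAX8-1 alone in 786-M1A (-0.24, adjusted p = 0.65).

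Complex III had 5 higher and 1 lower of 9 subunits in 786-M1A and 4 higher in OS-LM1, with medians of 0.36 and 0.29. UQCRC2, a core protein, was higher in both lines with no overlap (0.54, SE 0.14, adjusted p = 0.0051, and 0.31, SE 0.09, adjusted p = 0.011), but did not pass in 786-M1A with the GC trend removed (0.09, adjusted p = 0.34). UQCRC1 (chr3:48599002-48609646), its partner in the core, was lower in 786-M1A. It had 52.3, 54.0, 34 and 32.0 CPM with shPAX8-1 and 67.3, 68.0, 55.2 and 64.9 CPM with shPAX8-2, without overlap (-0.57, SE 0.16, adjusted p = 0.0087). OS-LM1 gave 33.5, 46.9, 35.7 and 38.4 CPM against 40.8, 36.5, 49.5 and 38.7 CPM, which overlapped (-0.13, adjusted p = 0.42). UQCRB, which helps bind ubiquinone, had 40.3, 52.2, 94.7 and 107 CPM against 27.8, 32.0, 42.5 and 44.5 CPM in 786-M1A (1.01, adjusted p = 0.0053), with replicate 1 of shPAX8-1 inside the range of the other construct. In OS-LM1 the difference did not pass (0.51, SE 0.28, adjusted p = 0.20).

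Of complex IV, 7 subunits were higher and 1 lower of 13 in 786-M1A, and 3 were higher of 12 in OS-LM1. COX7B (chrX:77899468-77907376), a small subunit, had 71.3, 90.9, 136 and 150 CPM with shPAX8-1 and 42.9, 45.8, 63.3 and 65.6 CPM with shPAX8-2 in 786-M1A, with no overlap (1.04, SE 0.21, adjusted p = 0.0014). OS-LM1 gave 115, 74.6, 167 and 122 CPM against 61.4, 84.9, 66.4 and 91.6 CPM, with 1 library of shPAX8-1 inside the range of the other (0.62, SE 0.20, adjusted p = 0.036). COX6C was higher in both lines with no overlap (0.72, SE 0.14, and 0.51, SE 0.14), and COX7A2L, which joins complexes III and IV into supercomplexes, was higher by 0.79 (SE 0.16) and 0.27 (SE 0.10). COX4I1 (0.18 and 0.15) and COX5B (-0.06 and 0.19) did not pass in either line.

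Complex V had 8 higher of 15 subunits in 786-M1A and 5 of 16 in OS-LM1, none lower. The subunits higher in both lines were of the stalk and the membrane part, ATP5H (subunit d), ATP5I (e), ATP5J2 (f) and ATP5L (g), and ATP5E of the central stalk. ATP5L did not overlap between the constructs in either line (0.58, SE 0.13, and 0.43, SE 0.10). ATP5B, the catalytic beta subunit, was higher in 786-M1A (0.30, SE 0.08, adjusted p = 0.0083) and did not pass in OS-LM1 (0.12, SE 0.09). ATP5A1, the alpha subunit, passed in neither line (0.11, SE 0.11, and 0.15, SE 0.08).

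**Figure D2:**
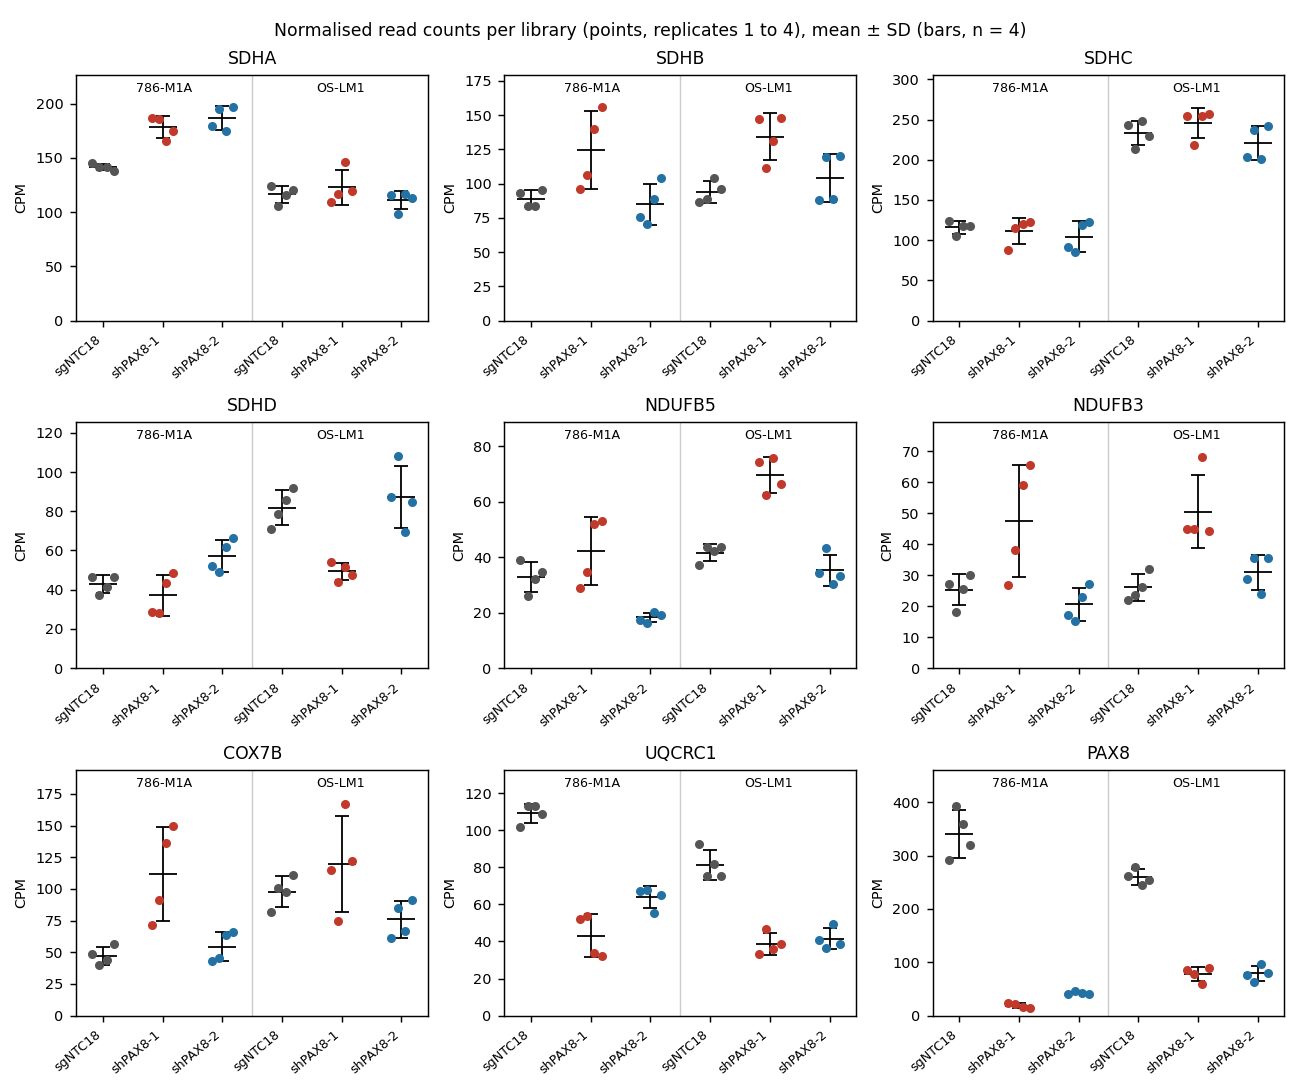
Normalised read counts (CPM, y axis) of 8 subunit genes and PAX8 in the 24 libraries, by line and construct (x axis). Points are libraries, bars the mean ± SD (n = 4). SDHD is lower with shPAX8-1 than with shPAX8-2 in both lines, SDHB, NDUFB5, NDUFB3 and COX7B are higher, and in 786-M1A replicates 3 and 4 of shPAX8-1 lie above replicates 1 and 2 for these 5 genes.

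GC content ran with the difference between the constructs. Across 14073 genes in 786-M1A the rank correlation of the log2 fold change with GC content was -0.552, and across the 77 subunits -0.587. In OS-LM1 these were -0.20 across 14637 genes and -0.244. Genes share libraries and are no replicates, so these values are a description. After the trends with GC content and transcript length were removed from each library, 24 subunits were higher and 10 lower in 786-M1A, with a median of 0.07, where 24.1% and 24.8% of all genes were, and 13 were higher and 1 lower in OS-LM1, with a median of 0.11, where 16.5% and 18.6% were. The count of higher subunits was thus near the background share in OS-LM1 in that fit. SDHD was -1.14 (SE 0.07, adjusted p = 1.1e-09) in 786-M1A and -1.02 (SE 0.07, adjusted p = 1.6e-09) in OS-LM1 in that fit. NDUFB5 was 0.63 (adjusted p = 7.8e-06) and 0.75 (adjusted p = 9.1e-08), and NDUFB3 0.51 (adjusted p = 0.0011) and 0.45 (adjusted p = 0.004). SDHB kept its call in 786-M1A (0.20, adjusted p = 0.034) and lost it in OS-LM1 (0.18, adjusted p = 0.078). Of the 18 subunits higher in both lines, ATP5E, ATP5L, NDUFB1 and UQCRC2 were no longer so with GC content removed. With both trends removed COX6C, COX7A2L, COX7B, SDHB and UQCRH were not either. NDUFA2, NDUFS6 and NDUFS8 joined the subunits higher in both lines with GC content removed. NDUFA2 and NDUFS8 were also among them with both trends removed. With GC content alone removed, UQCRC1 (-0.17, adjusted p = 0.069) and NDUFA11 (0.00, adjusted p = 0.99) lost their calls in 786-M1A, and the differences between the lines for NDUFA11 (0.25, adjusted p = 0.26) and NDUFA5 (-0.39, adjusted p = 0.08) no longer passed.

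**Figure D3:**
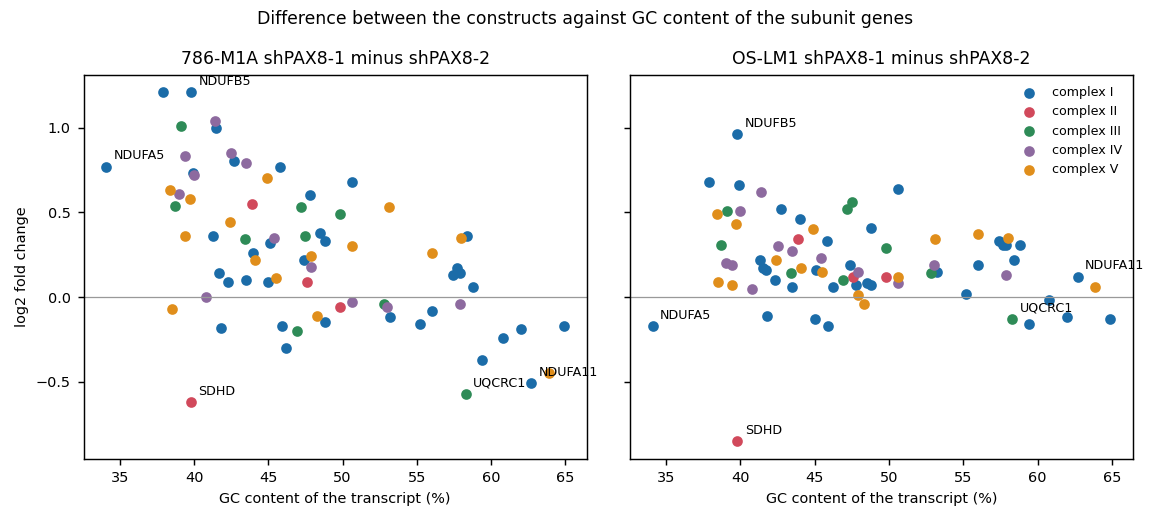
Log2 fold change between shPAX8-1 and shPAX8-2 (y axis) of each tested subunit gene against the GC content of its transcript (x axis, %), in 786-M1A (left) and OS-LM1 (right), coloured by complex. In 786-M1A the points fall from AT-rich genes such as NDUFA5 to GC-rich genes such as NDUFA11, and SDHD lies below the other AT-rich genes in both panels.

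In 786-M1A the same-numbered libraries of the constructs deviated together, as did some with other numbers. A fit of the 8 shPAX8 libraries with the replicate number as a block called 38 subunits higher and 7 lower, where 26.3% and 25.6% of all genes were called. ATP5D, NDUFB11 and NDUFV1 joined the lower subunits in it, NDUFV1 at -0.39 (SE 0.12, adjusted p = 0.015). The subgroups also bore on the counts. With replicates 1 and 2 of shPAX8-1 alone, 11 subunits were higher and 1 lower (12.7% and 13.1% of all genes), a share of higher ones near the background. Of the subunits named above, NDUFB5, NDUFB3 (0.67, adjusted p = 0.031), COX7B (0.58, adjusted p = 0.021), COX6C (0.60), COX7A2L (0.37) and ATP5L (0.45) passed in that fit. NDUFB1 (0.35, adjusted p = 0.31), NDUFA8 (0.42, adjusted p = 0.081), NDUFA11 (-0.26, adjusted p = 0.21), UQCRC1 (-0.26, adjusted p = 0.09), UQCRC2 (0.28, adjusted p = 0.099), UQCRB (0.34, adjusted p = 0.16) and ATP5E (0.35, adjusted p = 0.096) did not, nor did NDUFA5 (0.09, adjusted p = 0.77), ATP5H (0.28, adjusted p = 0.14), ATP5I (0.21, adjusted p = 0.20) and ATP5J2 (0.27, adjusted p = 0.16). With replicates 3 and 4 alone all of these passed in the same direction, among them ATP5I at 0.30, ATP5L at 0.69, NDUFB5 at 1.52, NDUFA11 at -0.83 and UQCRC1 at -0.96. When both constructs were taken from replicates 1 and 2, 36 were higher and 2 lower (15.2% and 14.8% of all genes), and from replicates 3 and 4, 30 were higher and 12 lower (26.4% and 27.1%). SDHD was then -0.83 (adjusted p = 0.00023) and -0.49 (adjusted p = 0.0065).

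Each construct was then compared with sgNTC18. Within a line these comparisons share their control libraries, so that each is given on its own. In 786-M1A, 27 subunits were higher and 32 lower with shPAX8-1 (36.1% and 34.5% of all genes), and 14 higher and 41 lower with shPAX8-2 (31.5% and 30.9%). Either way, 70.6% and 62.5% of all genes were called. In OS-LM1, 30 were higher and 26 lower with shPAX8-1 (35.6% and 35.8%), and 14 higher and 30 lower with shPAX8-2 (34.3% and 34.1%), and 71.4% and 68.4% of all genes were called either way. The medians over the subunits were -0.09, -0.31, 0.05 and -0.07 in this order, against 0.03, 0.02, -0.01 and -0.01 over all genes. Groups did not overlap for 51, 49, 51 and 39 of 77 subunits, where they did not for 63.5%, 61%, 66.3% and 61.9% of all genes.

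Counts are given by complex, and differences between complexes were not tested. In complex I lower subunits were the more frequent, with 20, 23, 17 and 19 of 36 lower and 10, 3, 11 and 4 higher in the order above, and medians of -0.42, -0.42, -0.20 and -0.30. With the GC trend removed these medians were -0.17, -0.43, -0.01 and -0.27. In complex III the higher ones were, with 6, 4, 7 and 4 of 9 higher and 2 lower in each, and medians of 0.80, 0.32, 0.75 and 0.23. Complex II had 2 higher with each construct in 786-M1A, 1 higher and 1 lower with shPAX8-1 in OS-LM1 and none called with shPAX8-2. Complex IV had 5, 3, 5 and 4 higher and 4, 6, 4 and 5 lower in the same order. In complex V, 4 and 2 of 15 were higher and 6 and 10 lower in 786-M1A, and 6 and 2 of 16 were higher and 2 and 4 lower in OS-LM1. With shPAX8-1 reduced to replicates 1 and 2 in 786-M1A, 21 subunits were higher and 32 lower than with sgNTC18 (32.1% and 33.9% of all genes). With replicates 3 and 4, 33 were higher and 30 lower (36.5% and 36% of all genes).

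**Figure D4:**
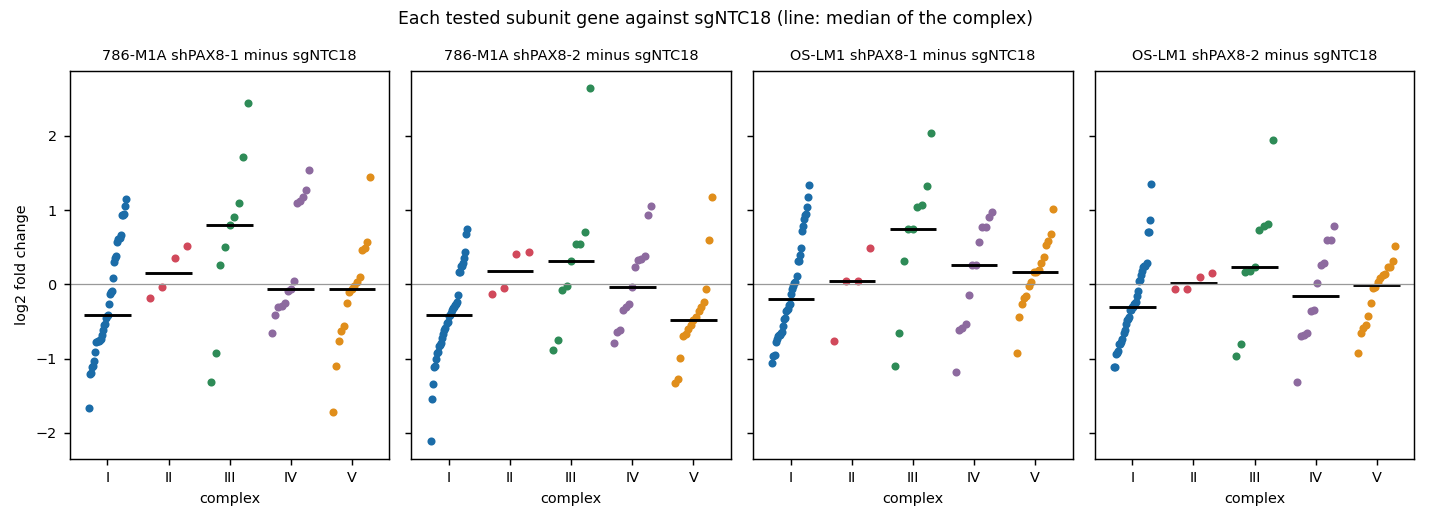
Log2 fold change (y axis) of each tested subunit gene against sgNTC18, by complex (x axis), 1 panel for each construct and line, with a line at the median of the complex. The median of complex I lies below 0 and that of complex III above 0 in each panel, and each complex holds genes on both sides of 0.

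Among complex I subunits, NDUFB8, of the membrane arm and often used as a marker of the assembled complex, had 64.1, 65.5, 66.8 and 71.8 CPM with sgNTC18 in 786-M1A. It had 20.4, 24, 18.3 and 19.9 CPM with shPAX8-1 and 20.4, 19.9, 20.8 and 29.2 CPM with shPAX8-2. In OS-LM1 it had 64.3, 54.7, 63.1 and 57.6 CPM with sgNTC18, 43.4, 36.6, 35.3 and 39.3 CPM with shPAX8-1, and 32.4, 31.1, 35.7 and 37.0 CPM with shPAX8-2. Every shPAX8 library lay below every sgNTC18 library of its line. The log2 fold changes were -1.67 (SE 0.13) and -1.55 (SE 0.13) in 786-M1A, and -0.66 (SE 0.09) and -0.81 (SE 0.09) in OS-LM1, with the largest adjusted p at 2.4e-06.

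NDUFB6, a neighbour of NDUFB8 in the membrane arm, had 60.9, 38.8, 45.2 and 52.5 CPM with sgNTC18 in 786-M1A, 13.6, 16.4, 27.9 and 32.3 CPM with shPAX8-1 and 9.79, 7.39, 14.4 and 13.9 CPM with shPAX8-2. In OS-LM1 it had 53.2, 57.3, 72.1 and 76.3 CPM with sgNTC18, 37.6, 37.5, 33.5 and 28.0 CPM with shPAX8-1 and 34.9, 42.1, 18.7 and 24.4 CPM with shPAX8-2. The hairpin libraries were again below all controls. The log2 fold changes were -1.11 (SE 0.26) and -2.11 (SE 0.27) in 786-M1A and -0.95 (SE 0.22) and -1.12 (SE 0.22) in OS-LM1. NDUFV1 fell by 1.10, 0.73, 1.06 and 0.90 on the log2 scale in the order above, and NDUFC1, another accessory subunit, by 1.21, 1.34, 0.78 and 1.11. NDUFS5, an accessory subunit of the intermembrane side, was the other way, with 1.06, 0.68, 0.95 and 0.87, and NDUFA5 was higher in OS-LM1 (1.17 and 1.35).

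The core proteins of complex III split. UQCRC1 had 102, 113, 113 and 109 CPM with sgNTC18 in 786-M1A and 92.5, 75.6, 81.6 and 75.4 CPM in OS-LM1, above every shPAX8 library of the line listed above. Its log2 fold changes were -1.32 (SE 0.16) and -0.75 (SE 0.16) in 786-M1A and -1.10 (SE 0.11) and -0.97 (SE 0.11) in OS-LM1. UQCRC2 had 50.2, 41.1, 51.1 and 49.9 CPM with sgNTC18, 78.2, 88.5, 115 and 121 CPM with shPAX8-1 and 66.3, 62.7, 71.7 and 75.6 CPM with shPAX8-2 in 786-M1A. In OS-LM1 it had 63.4, 58.6, 66.6 and 63.0 CPM with sgNTC18, 133, 123, 140 and 131 CPM with shPAX8-1 and 92.6, 111, 96.5 and 117 CPM with shPAX8-2. All shPAX8 libraries lay above the controls, with log2 fold changes of 1.09 (SE 0.14), 0.54 (SE 0.14), 1.04 (SE 0.09) and 0.73 (SE 0.09). UQCRFS1, the Rieske iron-sulphur protein, was called with shPAX8-1 in OS-LM1 alone (0.31, SE 0.08, adjusted p = 0.0018), a call that was lost with GC content removed (0.06, adjusted p = 0.40). UQCRHL, at 4.33 TPM on average, rose with both constructs in both lines (1.94 to 2.64), but is a near copy of UQCRH and its reads are uncertain.

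In complex IV, COX7C had 67.2, 46.2, 56.2 and 68.2 CPM with sgNTC18, 125, 143, 199 and 216 CPM with shPAX8-1 and 91.5, 94.8, 129 and 132 CPM with shPAX8-2 in 786-M1A. In OS-LM1 it had 188, 211, 226 and 261 CPM with sgNTC18, 452, 340, 528 and 460 CPM with shPAX8-1 and 326, 410, 327 and 458 CPM with shPAX8-2. The hairpin libraries were above all controls of their line, by 1.54 (SE 0.19), 0.93 (SE 0.19), 0.98 (SE 0.14) and 0.78 (SE 0.14). COX8A, another small subunit, fell by 0.66, 0.61, 1.18 and 1.31, and without the GC trend its difference with shPAX8-1 in 786-M1A did not pass (-0.14, adjusted p = 0.15). COX4I1 passed with shPAX8-2 in 786-M1A (-0.27, SE 0.10, adjusted p = 0.035) and with both constructs in OS-LM1 (-0.53 and -0.68, SE 0.08 each).

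In complex V, ATP5I rose with both constructs in both lines, by 1.44 (SE 0.10) and 1.18 (SE 0.10) in 786-M1A and by 0.68 (SE 0.13) and 0.31 (SE 0.13) in OS-LM1. ATP5G1, which encodes subunit c of the membrane ring, fell in each, by 1.10 and 1.33 in 786-M1A and by 0.93 with either construct in OS-LM1. ATP5D, the delta subunit, had 61.9, 99.1, 93.9 and 86.5 CPM with sgNTC18 in 786-M1A, 34.4, 32.6, 16.4 and 18.6 CPM with shPAX8-1 and 37.7, 38.5, 28.0 and 35.5 CPM with shPAX8-2, without overlap with the controls (-1.72, SE 0.22, and -1.27, SE 0.22). In OS-LM1 it did not pass (-0.19 and -0.25). Of complex II, SDHA was higher in 786-M1A with both constructs, at 187, 186, 166 and 175 CPM and 179, 195, 175 and 197 CPM against 145, 142, 142 and 138 CPM with sgNTC18, without overlap (0.35, SE 0.08, and 0.41, SE 0.08). In OS-LM1 it lay between 98.4 and 146 CPM in all 12 libraries, and no difference passed (0.05 and -0.07).

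Other lists gave a measure of how far the subunits resembled further genes. Cytosolic ribosomal proteins, whose transcripts are also short and abundant, were higher against sgNTC18 in 53, 51, 44 and 50 of 78 and lower in 10, 6, 14 and 9. Mitochondrial ribosomal proteins were higher in 10, 3, 16 and 10 of 77 and lower in 37, 47, 35 and 42. Between the constructs, cytosolic ribosomal proteins were higher in 19 and lower in 11 in 786-M1A, and higher in 0 and lower in 13 in OS-LM1, where 20 respiratory subunits were higher. Mitochondrial ribosomal proteins were higher in 23 and lower in 8 of 77 in 786-M1A, with a median of 0.09. In OS-LM1 they were higher in 7 and lower in 4, with a median of 0.07. Assembly factors of complex IV were higher with shPAX8-1 in 8 of 21 and lower in 2 (COX10 and COA3) in 786-M1A, and higher in 5 and lower in 1 (COX10) in OS-LM1, where the shares of all genes were 24.2% and 22.9%, and 12.4% and 16.7%. Regulators of mitochondrial biogenesis were higher in 6 of 11 and lower in 1 in 786-M1A, and higher in 1 and lower in 4 of 12 in OS-LM1. Among them PPARGC1B was higher in both lines (1.33, adjusted p = 0.00016, and 0.39, adjusted p = 0.04). NRF1 was lower in both (-0.32, adjusted p = 0.038, and -0.47, adjusted p = 0.013). GABPA was higher in 786-M1A (0.73, adjusted p = 0.0084) and did not pass in OS-LM1 (0.21, adjusted p = 0.16), and TFAM passed in neither (0.44 and -0.28).

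Cytochrome c, CYCS, the carrier between complexes III and IV, differed between the constructs in 786-M1A alone. It had 49.2, 55.2, 85.8 and 98.7 CPM with shPAX8-1 and 25.2, 27.5, 36.1 and 32.3 CPM with shPAX8-2 (1.26), and in OS-LM1 148, 113, 113 and 119 CPM against 133, 178, 94.8 and 112 CPM (-0.10). Its groups overlapped in OS-LM1 and not in 786-M1A, and the lines differed by -1.32 (SE 0.26, adjusted p = 0.00044). NDUFA4L2, which the rule left out as a paralogue of NDUFA4 known as a target of hypoxia-inducible factors, rose against sgNTC18 in OS-LM1 by 5.35 (SE 0.22) and 5.55 (SE 0.22), from a mean of 0.564 CPM with sgNTC18 to 23.7 and 26.5 CPM. In 786-M1A it fell under the filter, at means of 0.169 CPM with sgNTC18, 0.25 with shPAX8-1 and 0.317 with shPAX8-2.

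The lines were compared last. In the sgNTC18 libraries 31 of 77 subunits were higher in OS-LM1 and 15 lower (32% and 31% of all genes), and over the shPAX8 libraries 43 were higher and 18 lower (41.7% and 41.5%). With GC and length trends removed, 25 were lower with sgNTC18 (33.4% of all genes), and the median moved from 0.15 to 0.06. CPM did not overlap between the lines for 47 of 77 subunits with sgNTC18, against 62% of all genes. These comparisons share no library, and 28 subunits were higher and 9 lower in both, where 24.2% and 22.5% of all genes were. Complex V stood with 9 higher and 2 lower of 15 with sgNTC18 and 12 higher and 1 lower with shPAX8.

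COX7C was among the subunits most above 786-M1A, by 1.90 (SE 0.18) with sgNTC18 and 1.57 (SE 0.12) with shPAX8, as the counts above show without overlap. NDUFS4, an assembly-relevant accessory subunit of complex I that is mutated in Leigh syndrome, had 1.52, 1.33, 0.55 and 1.49 CPM in 786-M1A and 3.63, 4.42, 3.95 and 5.78 CPM in OS-LM1 with sgNTC18 (1.89, SE 0.30). UQCRFS1 was at 65.7, 69.3, 71.2 and 78.0 CPM in 786-M1A and at 165, 166, 175 and 180 CPM in OS-LM1 (1.27, SE 0.11), again with no overlap. Both membrane anchors of complex II were higher in OS-LM1, SDHC at 243, 214, 248 and 229 CPM against 124, 105, 118 and 118 CPM (1.01, SE 0.12) and SDHD by 0.93 (SE 0.15). SDHA was lower (-0.28, SE 0.09, adjusted p = 0.0068), and SDHB did not pass (0.08, SE 0.14). NDUFS7, a core iron-sulphur subunit, was at 51.2, 39.8, 50 and 41.2 CPM in OS-LM1 against 69.2, 99.5, 96.7 and 90.3 CPM in 786-M1A (-0.96, SE 0.16).

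ATP5D, NDUFA1 and NDUFA11 were called in opposite directions in the sgNTC18 and the shPAX8 libraries, as were 8.16% of all genes. ATP5D was lower in OS-LM1 with sgNTC18 (-0.91, SE 0.20) and higher with shPAX8 (0.39, SE 0.14). NDUFA11 was -0.45 (SE 0.14) and 0.32 (SE 0.10), and NDUFA1, of the membrane arm, 0.66 (SE 0.15) and -0.47 (SE 0.11). PPARGC1A, the coactivator that drives mitochondrial biogenesis, was higher in OS-LM1 by 4.27 (SE 0.24) with sgNTC18 and by 3.75 (SE 0.18) with shPAX8. In the fit of 786-M1A alone it fell under the filter on low counts, so these differences are set against a low level. Its part in the differences between the lines was not tested.

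**Figure D5:**
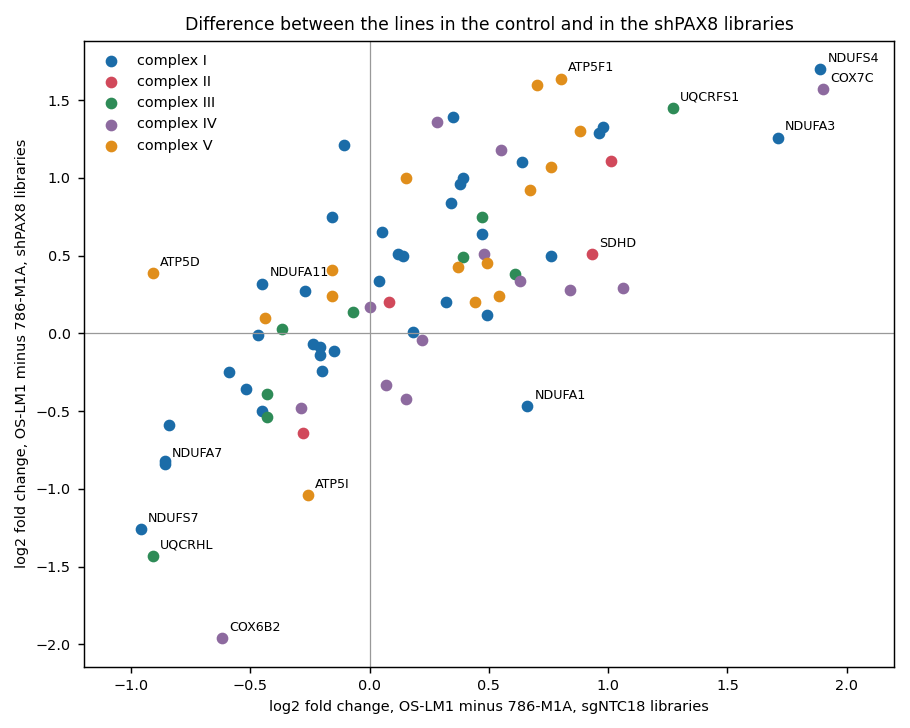
Log2 fold change of each tested subunit gene between OS-LM1 and 786-M1A in the sgNTC18 libraries (x axis) and the shPAX8 libraries (y axis), coloured by complex. COX7C, NDUFS4, NDUFA3 and UQCRFS1 lie to the upper right, NDUFS7 to the lower left, and ATP5D, NDUFA11 and NDUFA1 in the quadrants of opposite signs.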

How the data were processed

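RNA-seq of 24 libraries was used, 4 for each construct in each line. Per the labels the libraries were made with a stranded KAPA mRNA kit, whereas the study's methods name Lexogen kits. The authors mapped the reads to hg38 and deposited RSEM expected counts per gene (with TPM and FPKM beside them), for which the submitters' processing notes name Bowtie2 and RSEM; genes carry RefSeq transcript identifiers, and the annotation release is not given in the sources used here. TPM, the deposited level per length, was used for levels and is not tested. RSEM shares reads between near copies, so counts of genes with retrocopies are estimates.

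Expected counts were rounded, filtered with filterByExpr, scaled by TMM and tested with edgeR 4.0.16 (robust quasi-likelihood test, Benjamini-Hochberg adjustment over all 14452, 15049 or 15665 genes of the fit, R 4.3.3), with 1 fit for each line and 1 for both, each with all groups of its libraries. Alternatives were scaling by DESeq2's size factors, no filter, DESeq2 1.42.0, each library left out, a replicate block, stricter calls, GC and length trends removed from each library by splines (GC content was known for 95.4% of rows), and subsets of libraries. Of these, the block on the 8 shPAX8 libraries of 786-M1A and the subsets that took both constructs from replicates 1 and 2 or from 3 and 4 were chosen after seeing the data.

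Residuals of same-numbered libraries of the constructs in 786-M1A correlated at 0.51, 0.386, 0.733 and 0.105, each over 0.1, so that the numbers were taken to pair these libraries. In OS-LM1 same-numbered libraries correlated at -0.263, -0.401, -0.445 and 0.387 and were not taken as paired. In 786-M1A some libraries with other numbers correlated as much. The value was 0.706 for shPAX8-2 replicate 2 with shPAX8-1 replicate 1, and 0.741 for shPAX8-2 replicate 3 with shPAX8-1 replicate 4. Others were negative, down to -0.817 for shPAX8-2 replicate 3 with shPAX8-1 replicate 1. With the sgNTC18 libraries of 786-M1A, same-numbered libraries of shPAX8-1 correlated at -0.73, 0.604, -0.395 and 0.357. Those of shPAX8-2 correlated at -0.247, 0.512, -0.307 and 0.142. The values cannot tell pairing by number from the subgroups of replicates.

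Genes named are PAX8, fixed core subunits of each complex, and in each comparison the 3 subunits with the largest change each way at an adjusted p under 0.05 and a mean log2 CPM of at least 3. Other members and CYCS, NDUFA4L2, PPARGC1A and PPARGC1B were named after their values were seen. The values of 1 core subunit are not reported here. The members, lists and named core subunits were chosen with earlier results of these data known. On simulated counts, the test between the constructs recovered 46.3%, 86.6% and 100% of changes of 1.5, 2 and 4-fold among 14240 genes in 786-M1A, and 80.6%, 94% and 100% among 14824 in OS-LM1. The simulated spread followed the trend over all genes, without subgroups of replicates or a trend with GC content. The changed genes were drawn from all but the lowest levels and not from the subunits, so these shares need not hold for the subunits.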

Additional observations from a re-analysis of the deposited data

Results flagged for a closer look

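Among the 46 named genes, 259 groups of 4 libraries were checked for a library far from the other 3, and 14 such libraries were found, where chance gives about 1 in 20. In the control libraries of 786-M1A these were ATP5G3 at 156 CPM in replicate 1 (183 to 185 in the others), NDUFC1 at 59.0 in replicate 1 (68.9 to 70.4) and UQCRC2 at 41.1 in replicate 2 (49.9 to 51.1). With shPAX8-2 in 786-M1A, replicate 4 was high for ATP5B (470 CPM, others 398 to 410), COX5B (184, others 130 to 138) and NDUFB8 (29.2, others 19.9 to 20.8), and replicate 3 was low for NDUFV1 (40.1, others 50.6 to 52.4).

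In OS-LM1, shPAX8-1 replicate 2 was low for ATP5C1 (339 CPM, others 459 to 480), ATP5I (89.9, others 133 to 138) and SDHC (218, others 254 to 257), and shPAX8-1 replicate 3 was high for NDUFB3 (68.2, others 44.2 to 44.9) and NDUFA8 (74.1, others 39.4 to 45.2). ATP5G2 was low in sgNTC18 replicate 2 (185, others 224 to 232), and COX6A1 in shPAX8-2 replicate 1 (237, others 280 to 286).

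The difference between the constructs itself differed between the lines for NDUFA11 (0.67) and NDUFA5 (-0.92), as described above. ATP5A1, the alpha subunit of complex V, was lower with shPAX8-1 than with sgNTC18 in every library of 786-M1A (-0.56) and higher in every library of OS-LM1 (0.29), and the difference between these effects was not tested. The call in OS-LM1 was lost with the GC trend removed (0.13, adjusted p = 0.12).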

How the results depend on the processing

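Of the summary values under the alternatives other than leaving out a library, 537 stayed close to the value given above and 93 moved; of the single genes 1367 kept direction and side of the threshold, 80 missed it and 6 turned. For values that moved the cause was not tested, except that a stricter threshold cannot raise a count.

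With shPAX8-1 of 786-M1A reduced to replicates 1 and 2, 11 subunits were higher and 1 lower than with shPAX8-2 (12.7% and 13.1% of all genes). The median of complex V was 0.11, and the medians against sgNTC18 were -0.19 (all), 0.53 (III), 0.06 (IV) and -0.39 (V). The test between the lines gave 0 higher and 0 lower (7.86% and 7.98% of all genes), with medians of 0.16 (II) and 0.11 (V). With replicates 3 and 4, 9 were lower (31% of all genes), and the medians against sgNTC18 were 0.07 (all), 1.01 (III) and 0.10 (V). The lines then differed for 9 upward and 15 downward (21% and 20.9% of all genes). At an adjusted p under 0.01 the constructs gave 18 higher and 2 lower in 786-M1A and 9 higher in OS-LM1, shPAX8-2 gave 27 lower against sgNTC18 in 786-M1A, and the lines differed for 0 and 0. With a log2 fold change over 0.58 as well, the constructs gave 17 and 2 in 786-M1A and 5 higher in OS-LM1. In that setting 21 were lower against sgNTC18 with shPAX8-1 and 8 higher and 26 lower with shPAX8-2 in 786-M1A, 17 and 19 were lower in OS-LM1, and the lines gave 20 and 6 with sgNTC18 and 25 and 8 with shPAX8. The shares of all genes under these stricter calls were not counted.

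With GC and length trends removed, the constructs gave 10 lower in 786-M1A (24.8% of all genes), with medians of 0.07 (all), 0.10 (III), 0.02 (IV) and 0.00 (V). In OS-LM1 they gave 13 higher (16.5% of all genes), with 0.18 (III). Against sgNTC18 the medians were -0.21 (all), -0.27 (I), 0.65 (III) and -0.39 (V) with shPAX8-1 in 786-M1A, -0.07 (IV) with shPAX8-1 and 0.35 (III) with shPAX8-2 in OS-LM1. Between the lines 25 were lower with sgNTC18 (33.4% of all genes). The medians were 0.06 (all), 0.24 (II), 0.14 (IV) and 0.22 (V) with sgNTC18 and 0.10 (all), -0.02 (II) and -0.20 (IV) with shPAX8. The constructs differed between the lines for 2 downward (18.9% of all genes). With the GC trend alone removed, medians were 0.20 (IV) between the constructs in 786-M1A, -0.17 (I), 0.52 (III), 0.05 (IV) and -0.51 (V) for shPAX8-1 against sgNTC18 in 786-M1A, -0.01 (I), 0.10 (IV) and 0.01 (V) in OS-LM1, -0.13 (V) for shPAX8-2 in OS-LM1, 0.15 (I), 0.32 (II), 0.04 (III) and 0.28 (V) between the lines with sgNTC18, and 0.10 (II), 0.05 (IV) and 0.71 (V) with shPAX8. With length alone removed, 11 were higher between the constructs in OS-LM1 (12.5% of all genes), with 0.17 (III). There shPAX8-2 gave 26 higher against sgNTC18 (34.3% of all genes), with 0.05 (all), 0.17 (II) and 0.45 (III). Medians were 0.05 (all), -0.27 (I), 0.04 (IV) and 0.11 (V) for shPAX8-1 in 786-M1A, -0.32 (V) for shPAX8-2 in 786-M1A, 0.91 (III) for shPAX8-1 in OS-LM1 and -0.05 (I) between the lines with sgNTC18.

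Fitting only the libraries of a comparison gave a median of 0.15 for complex III between the lines with sgNTC18 and 0 downward between the lines for the constructs, as did no filter (0) and the replicate block (0). The numbers pair no libraries of OS-LM1, where the block gave 17 higher and 1 lower (10.4% and 13.8% of all genes) and moved SDHB to an adjusted p of 0.054. In 786-M1A, the block on the 8 shPAX8 libraries gave 7 lower, and both constructs from replicates 1 and 2, or 3 and 4, 2 and 12. Among the settings run on both lines, SDHD stayed the 1 subunit lower in both, and the number higher in both was 18 (DESeq2's size factors and DESeq2), 15 (no filter), 16 (block), 17 (GC), 11 (length) and 11 (GC and length).

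On leaving out 1 library, the constructs gave 18 to 37 higher and 2 to 7 lower in 786-M1A and 10 to 30 higher in OS-LM1, and differed between the lines for 0 to 3 upward and 0 to 5 downward. In 786-M1A the count of higher subunits fell without shPAX8-2 replicate 1 (18), shPAX8-2 replicate 2 (19) or shPAX8-1 replicate 4 (19), and the lower count was 7 without shPAX8-1 replicate 1 and 2 without shPAX8-1 replicate 3. In OS-LM1 it fell without shPAX8-2 replicate 1 (10), shPAX8-1 replicate 1 (12) or shPAX8-1 replicate 4 (12). The shares of all genes in the fits without 1 library were not counted, so these counts cannot be set against a background. Medians ranged from -0.47 to -0.33 (I) for shPAX8-1 against sgNTC18 in 786-M1A, from 0.71 to 0.86 (III) and 0.18 to 0.39 (IV) in OS-LM1, and from -0.04 to 0.09 (I) and 0.19 to 0.34 (IV) between the lines with sgNTC18. PAX8, which did not differ between the constructs in OS-LM1, turned to 0.08 (GC) and 0.14 (GC and length), and ranged from -0.14 to 0.09 on leaving out a library, with 0.09 without shPAX8-2 replicate 3 and 0.08 without shPAX8-1 replicate 3. Between the lines with shPAX8, NDUFV1 turned to 0.14 (GC) and 0.09 (GC and length), COX6A1 to -0.20 and ATP5G2 to -0.02 (GC and length). In 786-M1A, where 46.3% of simulated 1.5-fold changes were recovered, smaller differences may have been missed.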

Other observations

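Further genes of the respiratory chain were counted from lists written by hand. Assembly factors of complex I were higher with shPAX8-1 than with shPAX8-2 in 5 of 13 and lower in 2 in 786-M1A, and higher in 1 and lower in 1 in OS-LM1. Those of complex II were higher in 2 of 4 and in 1 of 4, those of complex III in 2 of 6 in each line with 1 lower in 786-M1A, and those of complex V in 1 of 3 and 0 of 3. Enzymes of the tricarboxylic acid cycle were higher in 5 of 13 and lower in 1 in 786-M1A, and higher in 1 and lower in 2 in OS-LM1. Against sgNTC18, assembly factors of complex I were lower in 7 and 9 of 13 with the constructs in 786-M1A and in 6 with either construct in OS-LM1. The background shares of these comparisons are those given for the subunits above.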
